A study of Mus musculus with 10 samples.

Results

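The genes described here encode the oxidative phosphorylation machinery of mitochondria in the cell nucleus. They were chosen by symbol among protein-coding genes: Nduf genes (complex I and its Ndufaf assembly factors), Sdha to Sdhd (complex II, where the prefix also takes in the Sdhaf assembly factors), Uqcr genes (complex III), Cox genes followed by a digit (complex IV and its assembly factors) and Atp5 genes (complex V). The rule found 109 genes, of which 99 were analysed among 19235 protein-coding genes. The other 10 lie on chromosomes 8 and 11, which were not analysed here.

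In the study, HA-tagged SETα or SETβ (SETa and SETb in the labels), isoforms of the histone-binding protein SET, was precipitated with an HA antibody from KH2 cells, a line of mouse embryonic stem cells. In 2 groups the transgene was put back into SET KO cells (SETα addback and SETβ addback), and in the other 2 it was expressed in SET WT cells (SETα and SETβ overexpression). All 4 groups had 24 h of doxycycline at 1 µg/ml to induce the transgene, and chromatin was fixed with DSG, which links proteins to proteins, and with formaldehyde. Each group had 2 libraries, each with its own peak list, and a further list per group held the peaks that passed the authors' test of reproducibility between the replicates (irreproducible discovery rate, IDR). Every group is a separate line carrying the transgene at the pBS31 target site of KH2 cells, grown on feeder cells that were depleted before harvest, so line and group cannot be told apart. A further 2 samples of SET KO cells had no doxycycline and are not analysed here. No peak list from cells that lack the tagged protein is therefore set beside these values, and the control library of the peak calls is not given in the sources used here.

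Complexes I to IV pass electrons from NADH and succinate to oxygen, complexes I, III and IV pump protons on the way, and complex V uses the proton gradient to make ATP. Most of their subunits, and all of the factors that assemble them, are encoded in the nucleus and imported into mitochondria. The promoters of these genes are known for sites of NRF1 and of GABP, a factor of the ETS family.

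A gene was said to have a peak when a peak overlapped the stretch from 1 kb before to 1 kb after either of its ends. Before the values, the promoters of 5 of the 10 genes in an addback IDR list are shown, with a short sequence, the ETS core, marked, because the positions of summits are given relative to it. They were chosen after the values were seen, to take in complex I and the assembly of complexes I, II and IV, and they are not the 5 strongest. The genes are Ndufs7 and Ndufa12 (complex I subunits), Ndufaf1 (a complex I assembly factor), Sdhaf3 (a complex II assembly factor) and Cox16 (a complex IV assembly factor). Each line gives the 250 bases before the transcription start (RefSeq, GRCm38.p6), 5′ to 3′ on the strand of the gene, and capitals mark CGGAA or its reverse complement TTCCG, the core of the ETS site.
Ndufs7 (chr10:80249199-80249448, plus strand): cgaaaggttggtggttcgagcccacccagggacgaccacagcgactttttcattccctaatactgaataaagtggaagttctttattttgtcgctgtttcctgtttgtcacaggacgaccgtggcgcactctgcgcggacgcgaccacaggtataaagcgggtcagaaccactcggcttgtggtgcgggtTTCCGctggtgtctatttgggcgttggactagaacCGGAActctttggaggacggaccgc
Ndufa12 (chr10:94198785-94199034, plus strand): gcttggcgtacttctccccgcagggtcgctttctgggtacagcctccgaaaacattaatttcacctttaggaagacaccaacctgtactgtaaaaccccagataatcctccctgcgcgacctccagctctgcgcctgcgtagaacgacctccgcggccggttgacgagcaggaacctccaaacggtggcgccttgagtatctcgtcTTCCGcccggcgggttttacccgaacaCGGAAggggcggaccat
Ndufaf1 (chr2:119662835-119663084, minus strand): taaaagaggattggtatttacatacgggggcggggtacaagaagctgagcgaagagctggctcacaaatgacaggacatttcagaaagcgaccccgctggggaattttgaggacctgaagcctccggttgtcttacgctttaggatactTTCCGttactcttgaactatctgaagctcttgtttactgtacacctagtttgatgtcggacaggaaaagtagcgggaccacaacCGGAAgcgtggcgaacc
Sdhaf3 (chr6:6955768-6956017, plus strand): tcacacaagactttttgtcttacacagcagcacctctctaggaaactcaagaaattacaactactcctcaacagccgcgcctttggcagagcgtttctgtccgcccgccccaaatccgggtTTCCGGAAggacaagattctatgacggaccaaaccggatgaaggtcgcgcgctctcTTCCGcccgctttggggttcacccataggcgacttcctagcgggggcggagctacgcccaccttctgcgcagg
Cox16 (chr12:81485138-81485387, minus strand): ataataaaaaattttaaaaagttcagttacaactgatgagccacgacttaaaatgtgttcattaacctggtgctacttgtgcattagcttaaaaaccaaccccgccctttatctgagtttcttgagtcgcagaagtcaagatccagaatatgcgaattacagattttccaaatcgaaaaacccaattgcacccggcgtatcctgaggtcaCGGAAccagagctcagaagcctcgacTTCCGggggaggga

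At Ndufs7 the summits lay near a core in 3 of 4 libraries. Relative to its transcription start, cores were centred at positions -58 and -23, and the summits of the 4 addback libraries lay at -26 and -85 (SETα) and at -57 and -55 (SETβ), 3, 27, 1 and 3 bp from the nearest core. At Ndufaf1, whose nearest core was centred at -15, the distances were 1 and 9 bp in the SETα libraries and 32 and 14 bp in the SETβ libraries. At Sdhaf3, with cores at -127, -124 and -71, they were 27, 24, 12 and 11 bp in the same order of libraries. Over the 4 libraries the median distance was 19.5 bp at Ndufa12. At Cox16 all 4 summits lay past the start, at 6, 106, 5 and 17, and so beyond the printed bases, with the nearest core at -12 or at 31, which is not in the printed line. The match was looser in SETα addback replicate 2, where the summit lay 75 bp from the nearest core, against 14 to 18 bp in the other libraries. Of the IDR genes not shown, Ndufs3 had the summits nearest to a core in all libraries (3 to 12 bp), and those of Ndufc2 lay 9 to 37 bp away. Those of Ndufaf7 (44 to 88 bp) and Ndufb3 (60 to 143 bp) lay farther from the only core of their windows.

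Oxidative phosphorylation genes carried peaks in both addback groups and almost none in the overexpression groups. In SETα addback, 53 of 99 genes (53.5%) had a peak in replicate 1, against 34.3% of all protein-coding genes, and 49 (49.5%) in replicate 2, against 31.8%. In SETβ addback the counts were 17 genes (17.2%) in replicate 1, against 8.41% of all genes, and 23 genes (23.2%) in replicate 2, against 18.4%. In SETα overexpression they were 1 gene in replicate 1 (1.01%), where 0.983% of all genes had a peak, and 2 genes in replicate 2 (2.02%), where 1.9% of all genes did. In SETβ overexpression 1 gene had a peak in each replicate (1.01%), where 0.338% and 1.85% of all genes did. The share of these genes with a peak was thus above the share of all genes in each of the 4 addback libraries, by the least in SETβ addback replicate 2 (where it did not hold among CpG-rich promoters, given below), and close to it or under 1 percentage point away in the overexpression libraries.

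**Figure D1:**
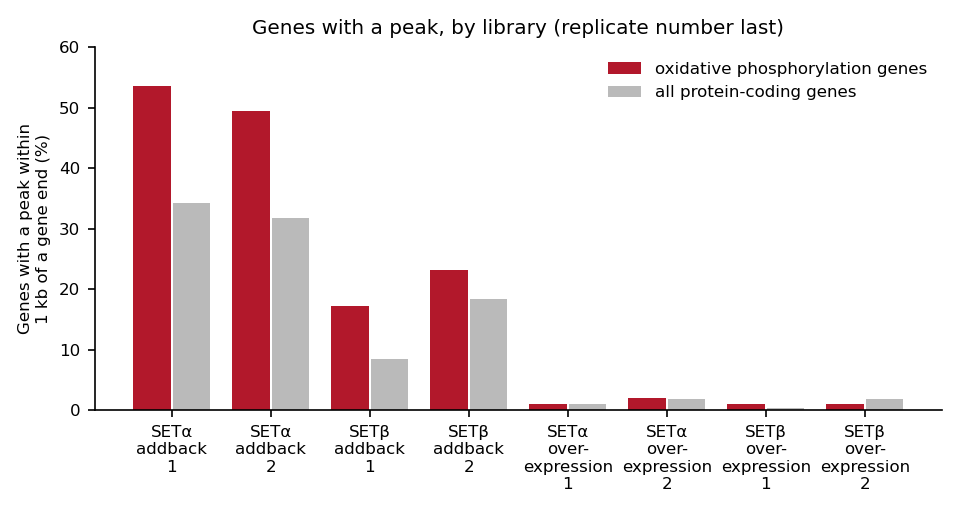
Share of genes with a peak (vertical axis, percent) in each of the 8 libraries, for the 99 oxidative phosphorylation genes (red) and all 19235 protein-coding genes (grey). Red bars stand at 53.5% and 49.5% in SETα addback, at 17.2% and 23.2% in SETβ addback, and at 1.01% to 2.02% in overexpression.

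Peaks shared by both replicates were fewer. In SETα addback 36 genes (36.4%) had a peak in both libraries, against 22.0% of all genes, and in SETβ addback 13 genes (13.1%), against 5.85%. The IDR lists, the most stringent, held 9 of the 99 genes (9.09%) for SETα addback, against 2.78% of all genes, and 10 (10.1%) for SETβ addback, against 2.62%. Neither overexpression IDR list held any of them: 0 genes, beside 0.0676% of all genes for SETα and 0.026% for SETβ. No test was made of these counts, since the genes were chosen with results of these libraries known.

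The libraries differ in the length of their lists. Within the addback groups the longer lists called more of these genes, while the overexpression lists, some longer than that of SETβ addback replicate 1, called 1 or 2. The lists held 22176 and 15701 peaks in SETα addback, 2518 and 9768 in SETβ addback, 4807 and 7675 in SETα overexpression, and 1343 and 2869 in SETβ overexpression. The promoters of the genes also differ from the average promoter: the RefSeq windows of 250 bases before to 50 bases after the start, found for 81 of the 99 genes, held a median of 20 CpG dinucleotides, against 14 in all genes. Among windows with 10 or more CpG, the shares of oxidative phosphorylation genes and of all genes with a peak were closer in 3 of the 4 addback libraries, and in SETβ addback replicate 2 the order turned. They were 60.5% against 51.9% and 51.3% against 49.2% in SETα addback, and 18.4% against 13.4% and 26.3% against 28.4% in SETβ addback. In the IDR lists a gap remained on this footing, at 9.21% against 4.48% for SETα and 10.5% against 4.29% for SETβ. Of the 99 genes, 51 (51.5%) lie within 1 kb of the end of another protein-coding gene, against 23.7% of all genes, so that a peak can belong to a neighbour. With peaks counted only where they overlapped the window of no other protein-coding gene, the counts in both replicates fell to 19 (SETα), beside 15.2% of all genes, and 7 (SETβ), beside 3.67%. Those in the IDR lists fell to 5 and 6, beside 1.65% and 1.54%.

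The peaks at these genes fell into a small strong set and a large weak set. The IDR lists together named 10 genes: Ndufs1, Ndufs3, Ndufs7, Ndufa12, Ndufb3 and Ndufc2 of complex I, Ndufaf1 and Ndufaf7 of its assembly, and Sdhaf3 and Cox16. All 10 had a peak in all 4 addback libraries, and 9 were in both IDR lists (Ndufa12 was in that of SETβ alone). In the addback libraries, 142 gene and library pairs had a peak, of which 48 reached a −log10 q of 5, and 39 of those 48 belonged to the 10 genes. The strength of a peak is given below as the authors' −log10 p, with the authors' fold over local background for the strongest gene, and both serve only to rank peaks within a list.

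Ndufs7, a subunit that carries the last iron-sulfur cluster on the way to ubiquinone, had the strongest peak of all the genes in each addback library. Its −log10 p was 66.4 and 83.4 in SETα addback replicates 1 and 2, and 104 and 86.1 in SETβ addback. The corresponding folds were 17.2, 23.7, 15.5 and 14.9. It ranked in the top 0.117%, 0.0764%, 0.477% and 0.102% of the 4 lists, and its 4 summits lay within 59 bp of each other. Ndufs1, the large iron-sulfur subunit of the NADH-oxidising arm, had −log10 p values of 58.4, 49.5, 86.8 and 50.9 in the same order, at a start that it shares with Eef1b2 on the other side. Ndufs1 ranked in the top 0.198%, 0.471%, 1.19% and 0.635% of the lists.

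Ndufs3, a subunit of the peripheral arm, gave −log10 p values of 32.3 and 32.2 with SETα and 51.0 and 47.5 with SETβ, at a start 19 bp from Kbtbd4. Ndufb3, an accessory subunit of the membrane arm, gave 41.3, 46.7, 62.6 and 38.8, at a peak that also reaches Fam126b. Ndufa12, an accessory subunit, gave 30.0, 39.4, 67.4 and 27.6. Ndufc2, another accessory subunit of the membrane arm, gave 22.3 and 18.9 with SETα and 38.2 and 25.9 with SETβ. Since −log10 p grows with depth as well as with enrichment, these values do not measure a difference in binding between libraries.

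Among the assembly factors, Ndufaf1, a chaperone of the membrane arm of complex I, gave −log10 p values of 51.1 and 60.8 with SETα and 36.9 and 37.1 with SETβ. Ndufaf7, a methyltransferase that modifies a complex I subunit during assembly, gave 26.7, 33.5, 28.6 and 38.5 at a peak shared with Cebpz. Sdhaf3, which helps to place iron-sulfur clusters in Sdhb, gave 42.3, 34.8, 76.3 and 59.5. Cox16, which acts in the assembly of a copper-bearing core subunit of complex IV, was the weakest of the 10 genes at 8.41, 13.9, 15.9 and 19.9. Of the 18 assembly factors 4 were in an IDR list (22.2%), and of the 81 subunits 6, beside 3.22% of all genes. Without the assembly factors the IDR counts were 5 (SETα) and 6 (SETβ) of 81 genes.

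**Figure D2:**
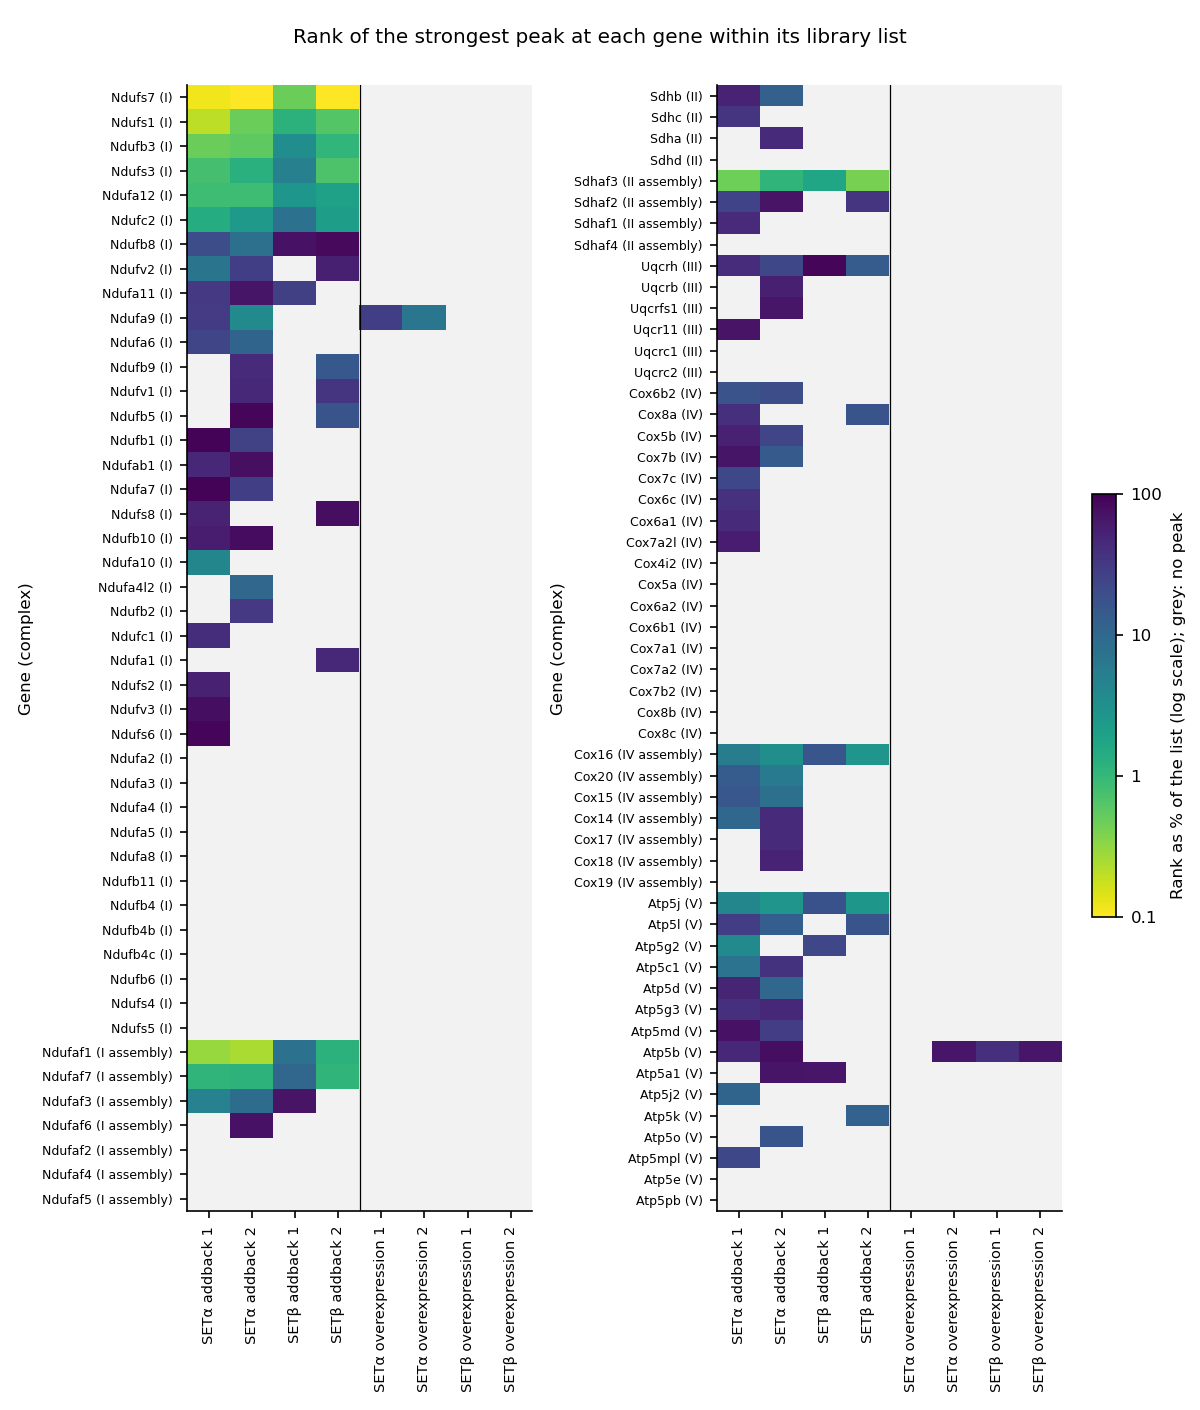
Rank of the strongest peak at each of the 99 genes within the list of each library, as a percentage of the list (colour, log scale), with genes on the vertical axis ordered by complex and libraries on the horizontal axis. Yellow and green cells, the strongest peaks, gather at the genes of the IDR lists in all 4 addback libraries, and the overexpression columns hold cells at Ndufa9 and Atp5b alone.

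Another 3 genes had a peak in all 4 addback libraries without entering an IDR list. Atp5j, a subunit of the stalk that holds complex V still, had −log10 p values of 9.26, 17.0, 12.3 and 20.7 and summits within 70 bp of each other. Its peak also lies within 1 kb of Gabpa, which encodes the DNA-binding subunit of GABP. Ndufb8 of complex I gave 5.7, 8.2, 4.43 and 3.38, with summits spread over 759 bp. Uqcrh, the hinge protein of complex III, gave 4.77, 6.1, 3.65 and 5.96, with summits spread over 1133 bp and beside Lrrc41. The 4 calls at Ndufb8 and Uqcrh were thus weak and did not mark the same position, unlike those of Atp5j and the IDR genes, whose summits lay within 31 to 101 bp of each other.

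Summits lay nearer to transcription starts in the IDR genes, although the sets overlapped. In the IDR genes the median distance from the summit to the nearest RefSeq start was 31 and 85 bp in the SETα libraries and 47 and 55 bp in the SETβ libraries, and no summit was farther than 154 bp. In the other genes with a peak the median distances were 256, 300, 320.5 and 183.5 bp, and 13 of 39, 11 of 32, 2 of 6 and 4 of 12 summits lay within 150 bp of a start. Their median −log10 p was 4.77, 5.7, 4.7 and 5.59, against 36.8, 37.1, 56.8 and 38.6 in the IDR genes. The strength of the peak is close to what the IDR selection uses, so the last contrast describes the sets and supports nothing. The distances are descriptions as well. The rule also counts peaks at the far end of a gene, and in SETα addback replicate 1 the other genes took in a summit 7538 bp from a start.

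**Figure D3:**
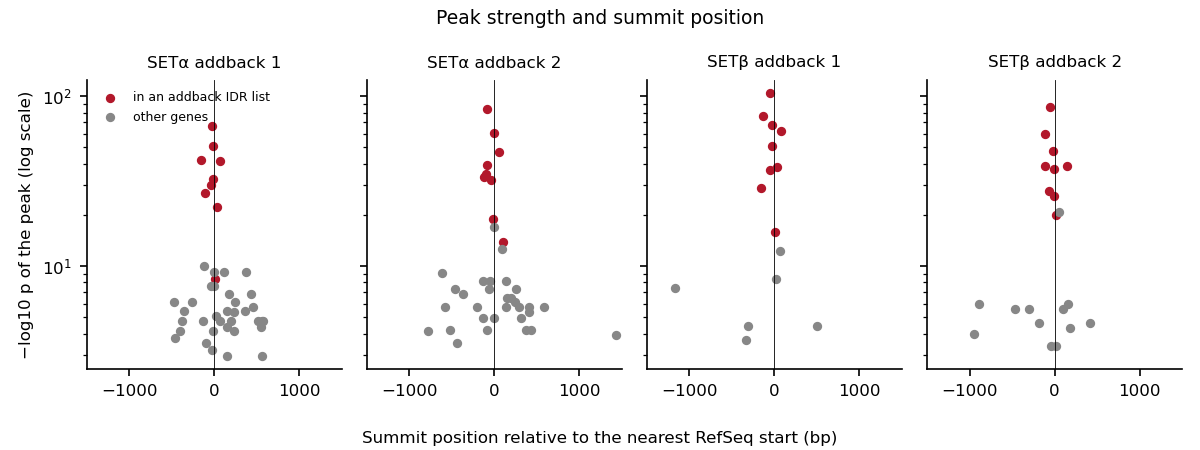
Position of the peak summit relative to the nearest RefSeq start (horizontal axis, bp) and −log10 p of the peak (vertical axis, log scale) in the 4 addback libraries, for genes of the IDR lists (red) and other oxidative phosphorylation genes (grey). Red points stand within 154 bp of the start in every panel, and most grey points lie lower and spread to both sides. Summits beyond the axis range, and genes without a RefSeq start such as Ndufs1, are not drawn.

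By complex, the genes with a peak were as follows, with genes placed by symbol. Ndufa4, counted here with complex I, is known as a subunit of complex IV. Of the 39 subunit genes of complex I, 21 and 20 had a peak in the SETα addback libraries, 8 and 13 in the SETβ addback libraries, and 7 in all 4 (17.9%). These are 53.8% and 51.3%, 20.5% and 33.3% of the genes, beside the 34.3%, 31.8%, 8.41% and 18.4% of all genes, and 5.15% of all genes in all 4. Of its 7 assembly factors 2 had a peak in all 4 libraries. Complex II had 2 of 4 subunit genes in each SETα library and 0 in each SETβ library, where the shares of all genes would give under 1 gene. Sdhb, the iron-sulfur subunit, was called in both SETα libraries (−log10 p 4.4 and 7.33), Sdhc in replicate 1 (4.77) and the flavoprotein Sdha in replicate 2 (4.93). Complex III had 2 and 3 of 6 genes with SETα and 1 in each SETβ library, which was Uqcrh. No subunit gene of complexes II and III was in an IDR list, where 3.22% of all genes were in either addback list, a share that gives under 1 of these genes.

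Of the 17 subunit genes of complex IV, 8 and 3 had a peak in the SETα libraries (47.1% and 17.6%), and 0 and 1 in the SETβ libraries. All genes stood at 34.3%, 31.8%, 8.41% and 18.4% in these 4 libraries. No peak in any addback library was found at 9 of the 17 (52.9%, beside 52.5% of all genes). A peak in all 4 libraries was found at 0 of the 17, which is near the background, since the 5.15% of all genes gives under 1 gene. The single SETβ call was Cox8a in replicate 2 (−log10 p 5.59). Of the 9 genes without a peak, Cox4i2, Cox6a2, Cox7a1, Cox7b2, Cox8b and Cox8c are forms known from particular tissues such as muscle, lung or testis, and Cox5a, Cox6b1 and Cox7a2 are forms used widely. The testis form Cox6b2 was called in both SETα libraries (−log10 p 6.15 and 6.5). Of the 7 assembly factors of complex IV, 4 and 6 had a peak in the SETα libraries (57.1% and 85.7%), beside 34.3% and 31.8% of all genes. In each SETβ library 1 did (Cox16), beside 8.41% and 18.4% of all genes, so that with 7 genes the SETβ counts are near the background. Of the 15 complex V genes 10 and 9 had a peak with SETα, 3 and 3 with SETβ, and 1, Atp5j, in all 4 (6.67%). The groups are small, and the differences between complexes were not tested.

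**Figure D4:**
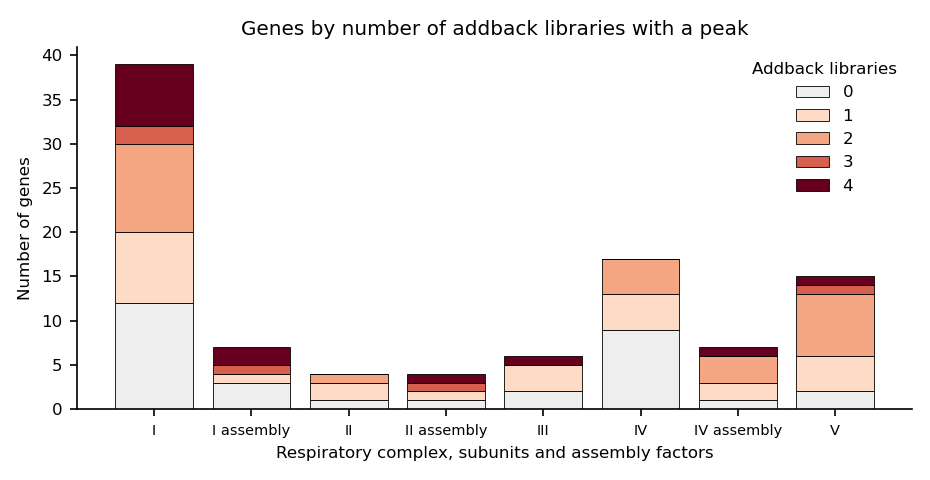
Number of genes (vertical axis) of each complex, subunits and assembly factors apart, by the number of addback libraries in which the gene had a peak (shade, 0 to 4). The darkest segment, genes with a peak in all 4, is 7 of 39 in complex I subunits.

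In all, 31 of the 99 genes had no peak in any addback library (31.3%, against 52.5% of all genes). In complex I these were the 12 subunit genes Ndufa2, Ndufa3, Ndufa4, Ndufa5, Ndufa8, Ndufb4, Ndufb4b, Ndufb4c, Ndufb6, Ndufb11, Ndufs4 and Ndufs5, and the 3 assembly genes Ndufaf2, Ndufaf4 and Ndufaf5. Beside these and the 9 complex IV subunits above they were Sdhd, Sdhaf4, Uqcrc1, Uqcrc2, Cox19, Atp5e and Atp5pb. Another 25 genes had a peak in 1 addback library, 25 in 2, 5 in 3 and 13 in all 4 (13.1%, against 5.15% of all genes). The nearest calls to the window limit were Ndufa11 in SETβ addback replicate 1, 1000 bp from the gene end and counted, and Cox4i2 in SETα addback replicate 2, 1091 bp away and not counted.

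The isoforms differed in the number of genes with a peak, and this difference lay in the weak peaks. On average 51.5% ± 2.86 (SD, n = 2) of the genes had a peak in SETα addback and 20.2% ± 4.29 (SD, n = 2) in SETβ addback, a difference of 31.3 percentage points, larger than the spread between replicates. All genes showed a difference of 19.7 points, with a ratio of 2.47 beside 2.55 in the oxidative phosphorylation genes. A peak in both SETα libraries and in neither SETβ library was found at 18 genes (18.2%, against 10.1% of all genes), and the opposite pattern at 0, beside 0.187% of all genes, a share that gives under 1 of the 99. Ndufa1 and Atp5k had a SETβ peak, each in replicate 2, and none with SETα (2.02%, against 3.35% of all genes), so these last counts are near the background.

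At matched stringency the difference was smaller. With peaks of −log10 q of at least 5, 13 genes had a peak in each SETα addback library and 11 in each SETβ addback library, where 3.88%, 4.52%, 2.69% and 2.62% of all genes did. The mean difference was then 2.02 points, beside 1.55 in all genes. With the strongest 1343 peaks of each library, as many as the shortest list holds, 14, 15, 13 and 13 genes had a peak, and the difference was 1.52 points, beside 0.0338 in all genes. At a −log10 q of at least 5 and with the strongest peaks, each SETα library was above each SETβ library by 1 or 2 genes. The genes called in both replicates were 10 with SETα and 11 with SETβ at a −log10 q of at least 5, beside 2.88% and 2.33% of all genes. With the strongest peaks they were 11 and 11, beside 3.23% and 3.35% of all genes. In the single libraries, 4.65% and 5.77% of all genes had one of these strongest peaks with SETα and 5.39% and 4.96% with SETβ. Depth and enrichment of the libraries were not measured here, and their part in the longer SETα lists was not tested.

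Cells that kept endogenous SET gave few peaks at these genes, as at all genes. Averaged over isoforms, 35.9% of the genes had a peak in addback and 1.26% in overexpression, where 1.27% of all genes did, a difference of 34.6 points, beside 22.0 points in all genes. Over the 2 libraries of a group the overexpression means were 1.52% ± 0.714 (SD, n = 2) for SETα and 1.01% ± 0 (SD, n = 2) for SETβ. The difference from addback was larger than the spread between replicates. It was 13.1 points with the strongest 1343 peaks of each library, where 4.64 points were found for all genes. None of the 10 IDR genes had a peak in any overexpression library.

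The calls in overexpression libraries came from 2 genes. Ndufa9, an accessory subunit of complex I, had −log10 p values of 4.49 and 7.09 in SETα overexpression and 5.39 and 12.5 in SETα addback, and no peak with SETβ. It lies on chromosome 6, and without that chromosome the number of genes called in both SETα overexpression libraries was 0, and the share of all genes called in both fell from 0.879% to 0.0718%. Atp5b, the catalytic subunit of complex V, had values of 3.56 in SETα overexpression replicate 2 and of 4.14 and 3.56 in SETβ overexpression, and 4.74 and 4.16 in SETα addback. In the first 2 of these overexpression libraries the summit lay 7393 and 7616 bp beyond the start, at the far end of the gene and beside Baz2a, and in the last at position -537 from it. These 3 calls at Atp5b did not mark a common position.

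Motifs were searched on both strands of the promoter windows of 300 bases. The ETS core CGGAA was in 71.6% of the windows of oxidative phosphorylation genes and in 38.3% of those of all genes. Longer forms that contain it, CCGGAA and the GABP form CCGGAAG, were in 39.5% against 20.5% and 28.4% against 12.7%. The NRF1 site GCGCATGCG was in 12.3% against 2.54%, and the YY1 site AAGATGG in 14.8% against 7.08%. The SP site GGGCGG and the NF-Y site CCAAT were about as frequent as in all genes, at 50.6% against 48.5% and 39.5% against 42.2%. The other sites searched were ACTACAA (ZNF143/THAP11) in 8.64% against 4.14%, TGACGTCA (CREB/ATF) in 4.94% against 2.44% and CACGTG (E-box) in 6.17% against 8.71%. The TATA box, spelled TATAAA, was in 9.88% against 14.8%. The 3 ETS forms and the NRF1 site contain CG, and 93.8% of the windows of oxidative phosphorylation genes held 10 or more CpG, against 58.5% of all genes. The shares of motifs were not compared at equal CpG content. A match is only a run of letters and is no measure of a factor.

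All 9 of the IDR genes with a window (there was none for Ndufs1) held CGGAA, 6 held CCGGAA and 4 held CCGGAAG, and 0 held the NRF1 site, which at its share of 12.3% in the whole set would be about 1 gene. In the whole set 71.6% held CGGAA, and of the 47 genes with a window and an addback peak but in no addback IDR list 35 did (74.5%). Of the 25 genes with a window and no addback peak, 14 held CGGAA (56.0%), 5 held CCGGAA and 4 the NRF1 site. Of the 58 genes whose window held CGGAA 9 were in an IDR list (15.5%), and of the 23 genes whose window lacked it 0. Of all coding genes 7.1% with CGGAA and 0.951% without it were in an addback IDR list, so that the 0 of 23 is near the background. The same letters were frequent outside these genes: of the 471 other coding genes whose window overlaps an addback IDR peak, 86.6% held CGGAA and 4.46% the NRF1 site. The motif is therefore shared with the other strong SET peaks and is not particular to oxidative phosphorylation genes.

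Over all 9 IDR genes with a window, 19 of the 36 summits (52.8%) lay within 20 bp of the centre of a CGGAA. To set this against the letters of the windows, 1 window a gene and the summits inside it were taken. This leaves out Ndufb3, whose summits lie past its window and 60 bp or more from its core, and takes for Cox16 another window than the 1 shown, with 1 summit 172 bp from a core. In the remaining 8 IDR genes 16 of 29 addback summits inside a window (55.2%) lay as near, where 23.1% of the bases of those windows did. In the other oxidative phosphorylation genes 1 of 26 summits did (3.85%, with 14.2% of bases). Among other coding genes the shares were 47.5% of 1142 summits (28.7% of bases) in genes of the addback IDR lists and 15.0% of 3175 summits (13.0% of bases) in the rest. For the SP site they were 27.6% of summits and 15.8% of bases in the IDR genes described here, and 126 of 1142 summits and 11.4% of bases in the other genes of the IDR lists. The share of bases weighs all bases of a window alike, whereas the summits of the IDR genes lay near the start, as did several cores. How much a shared position near the start adds to the shares of summits was not tested. Summits of 1 gene in several libraries are not independent, so these shares are descriptions.

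**Figure D5:**
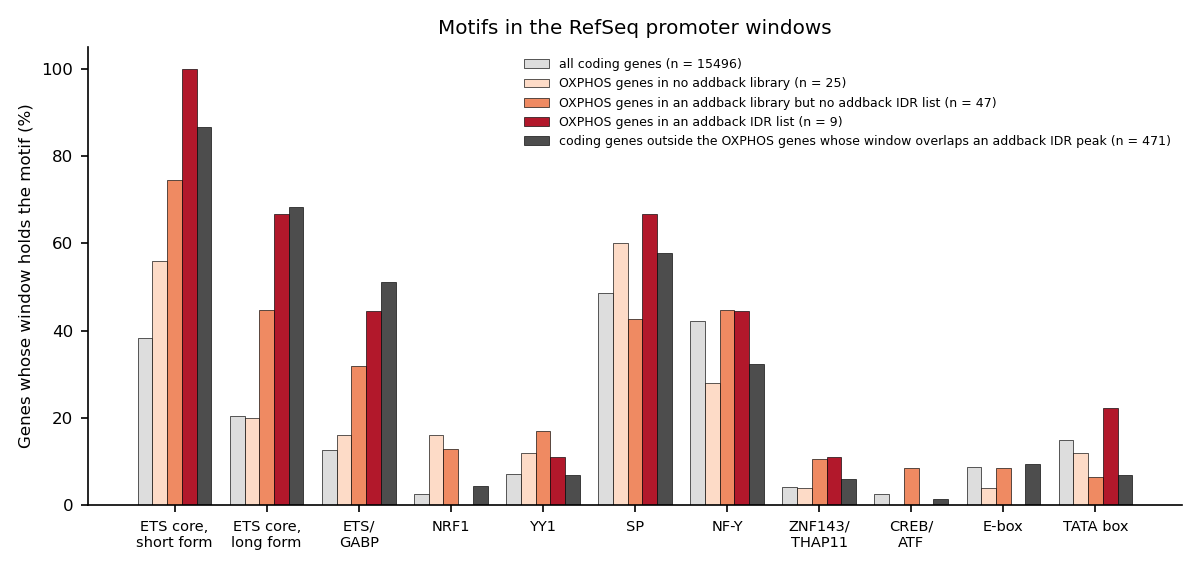
Share of genes whose promoter window holds each motif (vertical axis, percent), for all coding genes, 3 sets of oxidative phosphorylation (OXPHOS) genes and the other coding genes under an addback IDR peak. The short ETS core rises from 38.3% in all genes to 9 of 9 in the OXPHOS genes of the IDR lists, where the NRF1 bar is at 0.

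Other genes that serve the same pathway were counted by the same rule, to be read against the 34.3%, 31.8%, 8.41% and 18.4% of all genes in the 4 addback libraries and the 5.15% in all 4. Of 18 genes for electron carriers and the enzymes that make them, 10, 12, 5 and 7 had a peak in the 4 addback libraries, and Coq3, Coq4 and Pdss1, which act in the synthesis of ubiquinone, had a peak in all 4. Coq4 gave −log10 p values of 40.1, 32.2, 40.8 and 22.2, and Pdss1, which makes the side chain of ubiquinone, 26.7, 28.6, 38.9 and 13.8. Of 19 assembly factors with other names 13, 10, 5 and 5 had a peak, among them Atpaf1 (complex V), Bcs1l (complex III) and Timmdc1 (complex I) in all 4. Bcs1l gave 12.6, 9.09, 16.9 and 8.18. Of 16 genes of the tricarboxylic acid cycle, which supplies the electrons, 9, 7, 1 and 2 had a peak and 0 had a peak in all 4. With so few genes, the SETβ counts and the 0 are near the shares of all genes (8.41%, 18.4% and 5.15%).

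Among 16 regulators of nuclear and mitochondrial transcription of this pathway 11, 10, 7 and 7 had a peak, and 5 had a peak in all 4: Gabpa, Gabpb2, Yy1, Esrra and Tfam. Yy1, a transcription factor of mitochondrial genes, gave −log10 p values of 9.22, 17.0, 11.5 and 18.7 and was in both IDR lists. Tfam, which packages mitochondrial DNA, gave 4.77, 4.26, 3.76 and 5.07, all weak. The value of Gabpa rests on the peak it shares with Atp5j. Genes of mitochondrial ribosomal proteins, which translate the subunits encoded in mitochondria, were called more often than the oxidative phosphorylation genes: of 65 genes 61.5%, 55.4%, 29.2% and 44.6% had a peak in the 4 addback libraries, and 13 and 14 were in the SETα and SETβ IDR lists (21.5% for SETβ). Of 90 genes of cytoplasmic ribosomal proteins 72.2%, 70.0%, 24.4% and 42.2% had a peak, and 6.67% and 7.78% were in the IDR lists, beside the same 2.78% and 2.62%.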

How the data were processed

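The data were peak lists of 8 HA ChIP-seq libraries, 2 in each of 4 groups, and 1 IDR list per group. Peaks were called by library, as the deposited lists show. Per the labels and the deposited files, the authors' columns hold a fold enrichment (a linear ratio over local background), a −log10 p and a −log10 q of the peak caller, and a score, which in the IDR lists is a scaled IDR. The submitters' processing notes name Bowtie2, MACS2, deepTools and the builds GRCm38 and mm10; versions and the control library are not given in the sources used here. Read depth was not given in these lists.

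Here, genes and promoter windows came from RefSeq (GRCm38.p6), where windows were found for 81 of 99 genes and 15496 of 19235 coding genes. A peak counted at a gene when at least 1 bp fell within 1 kb of either end of the gene, and the strongest such peak gave the gene's values. Ranks are by −log10 p within a list. Of the addback genes, those in all 4 libraries and an IDR list, the 2 best ranked per complex among those in all 4, those with an overexpression peak, and (by name) those without an addback peak are named. Other named genes with a value, such as Sdhb, Sdhc, Sdha, Cox6b2, Cox8a, Ndufa1, Atp5k, Bcs1l and Tfam, were chosen after their values were seen, as were the motif forms CGGAA and CCGGAA, the CpG split and the distance of 20 bp. The members, gene lists and measures were all chosen with earlier results of these data known, so no p-values are given. The labels do not state whether replicates were separate cultures, so the SD may be technical. The overlap code was tested on simulated data, where planted genes meet the rule by design. In a list simulated at the size of SETα addback replicate 1, 200 of 200 planted genes were found among 19235. A brute-force count of 300 genes in that list differed at 0 genes. Python 3.11.15 with numpy 2.4.6, pandas 2.3.3 and matplotlib 3.10.9 was used.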

Additional observations from a re-analysis of the deposited data

How the results depend on the processing

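Neither difference in mean share changed sign under any setting where it was recomputed, which leaves out the count of peaks at no other coding gene. The counts in both replicates did change order between the isoforms (SETα 36 and SETβ 13 in the full lists, 10 and 11 at a −log10 q of at least 5, 11 and 11 with the strongest peaks). In all, 62 of 90 recomputed values stayed within 1.5 times the reported count or, for the differences, within the SD between replicates (3.64 and 2.6 points). For the SETα minus SETβ addback difference (31.3 points) and the addback minus overexpression difference (34.6 points), values were 25.3 and 28.5 with a window of 250 bp, 24.7 and 27.3 with a q of at most 0.05, 2.02 and 12.1 with a −log10 q of at least 5, and 1.52 and 13.1 with the strongest 1343 peaks of each library. The second was 37.4 with a window of 2.5 kb and 38.9 with transcription starts alone. The 36 genes in both SETα addback libraries became 10 at a −log10 q of at least 5 and 11 with the strongest peaks. The share of all genes went from 22.0% to 2.88% and 3.23% under the same settings. By construction these stricter settings drop weak peaks. The genes in both SETα overexpression libraries became 0 without chromosome 6, with a q of at most 0.05 and with a −log10 q of at least 5. Those in both SETβ overexpression libraries became 0 with the window of 250 bp, starts alone, both q limits and the strongest peaks. With subunits alone the IDR counts were 5 for SETα and 6 for SETβ, since 4 assembly factors were left out. Counting only peaks at no other coding gene, an alternative chosen after seeing the data, gave 19 and 7 genes in both libraries (15.2% and 3.67% of all genes) and 5 and 6 in the IDR lists (1.65% and 1.54%).

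Leaving out 1 library leaves the other library's count: 49 to 53 for SETα addback, 17 to 23 for SETβ addback, 1 to 2 for SETα overexpression and 1 to 1 for SETβ overexpression. The differences then ranged from 28.3 to 34.3 and from 33.1 to 36.1 points. The count of 13 in both SETβ addback libraries is 23 without replicate 1 and 17 without replicate 2. No paired analysis was possible because no test was made and each group is its own cell line. Read depth was not known, so a gene without a peak is one where none was called at the depth of that library.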
